A study of Drosophila melanogaster with 2 samples.

Results

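The 34 genes described here set up the segments and the dorsoventral axis of the Drosophila melanogaster embryo, and the question was whether the architectural protein ZIPIC bound at them, in the DNA around them, or at the promoters of their neighbours. They were taken as a list of gene symbols, drawn up with earlier results of these data known, from maternal factors (bcd, cad) through gap, pair-rule, segment polarity and dorsoventral genes to trunk and limb selectors (tsh, Dll). All 34 symbols matched the annotation, out of 13945 protein-coding genes on the 6 main chromosome arms. Binding was mapped by chromatin immunoprecipitation and sequencing (ChIP-seq) with an antibody against green fluorescent protein (GFP). The embryos came from a transgenic line in which ZIPIC (CG7928) carries GFP at its C terminus, were of both sexes and were 0 to 24 h old. The 2 samples, biological replicates numbered 2 and 3, form 1 group with this genotype and age and no treatment, so there was no comparison between conditions. A precipitation from embryos without the tag was not analysed here, and the labels do not say which promoter drives the fusion.

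Patterning of the fly embryo runs as a cascade. Maternal gradients switch on gap genes in broad domains, gap proteins switch on pair-rule genes in stripes, and these place the narrower stripes of segment polarity genes. Along the other axis the maternal Dorsal gradient controls mesoderm, neuroectoderm and dorsal ectoderm genes, and a gradient of the BMP ligand Dpp patterns the dorsal side. Such genes are known for long stretches of regulatory DNA with many enhancers, and ZIPIC, a zinc-finger protein that interacts with CP190, belongs to the architectural class studied for partitioning such DNA. Whole embryos of mixed age mix cells in which a patterning gene is on with cells in which it is off, so binding in few cells and weak binding in all cells cannot be told apart.

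The values are the authors' own. The series holds 2971 optimal peaks, which are the strongest of 30000 pooled candidate entries, and a candidate list of 30000 entries for each replicate. Candidate lists include weak background entries by design. The signal of an entry is a score of unstated scale, and it is used here only to rank and describe entries within a list. Optimal peaks ran from 126 to 7447 in signal with a median of 208.6. A gene was called bound when the summit of an optimal peak lay within 500 bp of any of its annotated starts, and its locus was the gene body with 20 kb on each side. Replicate 2 and replicate 3 shared 58.5% of the optimal peaks (1739) among their own strongest 2971 entries. The labels call the replicates biological, but with 2 samples in 1 group no test was made, and all shares are descriptions set beside the same share over all protein-coding genes.

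Only bcd was bound at its own start by this rule, which is 1 of 34 genes (2.94%) against 18.4% of all protein-coding genes. bcd encodes the homeodomain protein of the anterior maternal gradient. Its peak (chr3R:6759413-6759822) had its summit 152 bp upstream of the start, with a signal of 138.5 and rank 2599 in the pooled list. Replicate 2 listed it at 75.5, at rank 1987, and replicate 3 had no entry there. The call for bcd therefore rests on replicate 2. Taking only the strongest 2971 entries of each replicate, replicate 2 marked bcd and hb (2 of 34, 5.88%, against 13.7% of all genes). By the same rule replicate 3 marked 0 of 34, against 20.1% of all genes.

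Weaker entries were found at more of the starts, again at a lower share than over all genes. Any pooled candidate lay within 500 bp of a start for 12 of 34 genes (35.3%), against 50.8% of all protein-coding genes. The whole list of replicate 2 marked 10 genes (29.4%), against 31.8% of all genes, and that of replicate 3 marked 6 (17.6%), against 56.5% of all genes. The shares in replicate 2 lay close to each other, and those in replicate 3 lay far apart. Only cad and wg had an entry at a start in all 3 lists.

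Among the maternal and gap genes, hb and cad had the strongest entries at a start below the optimal threshold. At hb, the zinc-finger gap gene of the anterior embryo, the pooled signal was 94.9 (rank 4492) and replicate 2 gave 60.1, with no entry in replicate 3. At cad, a homeodomain gene that specifies the posterior, the pooled signal was 84.9 (rank 5286), with 25.97 in replicate 2 and 62.9 in replicate 3. The replicates thus listed different members of this pair as the stronger, and neither pooled entry reached the weakest optimal peak, at 126. ems, a homeodomain head gap gene, had a pooled entry of 38.8 and one of 32.6 in replicate 3. hkb, which acts at the embryo's ends, had an entry of 38.4 in replicate 2 alone. Kr, kni, gt, tll and btd had no entry at a start in any list.

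The pair-rule genes, which set the alternating segment units, had the emptiest starts. Of 8 genes, 0 had a pooled entry at a start, against 50.8% of all protein-coding genes. In the replicates odd alone had an entry, of 28.6 in replicate 2 at rank 17455, and eve, ftz, run, prd, slp1, slp2 and opa had none. Of the 4 segment polarity genes, wg, the Wnt ligand, was listed at 69.1 pooled, 38.3 in replicate 2 and 23.7 in replicate 3. The homeodomain gene en had 39.5 pooled and 29.5 in replicate 3, while its neighbour and paralogue inv had 46.3 pooled and 33.98 in replicate 2. hh, the Hedgehog ligand gene, had no entry at its start.

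Of the 10 dorsoventral genes, 4 had a pooled entry at a start, against 50.8% of all protein-coding genes. sog, which encodes a secreted BMP antagonist, stood highest at 70.5 pooled, with no entry at that start in either replicate. At its other start sog had 44.1 pooled and 26.5 in replicate 2. rho, whose protease releases the ligand of the EGF receptor, had 42.4 pooled at -238 bp and 24.1 in replicate 2 at -246 bp, and replicate 2 had a further entry of 39.0 at -453 bp. brk, a repressor of Dpp targets, had 40.3 pooled and 32.3 in replicate 3, and dpp itself had 34.6 pooled at -438 bp and 20.2 in replicate 3 at -428 bp. At another start of dpp replicate 3 had 30.6 with no pooled entry. The mesoderm gene sna had an entry of 23.7 in replicate 2 alone, and twi, vnd, ind, zen and tld had none. For the selectors, Dll, the homeodomain gene of limb primordia, had a pooled entry of 42.5 and none in either replicate, and tsh had none.

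**Figure D1:**
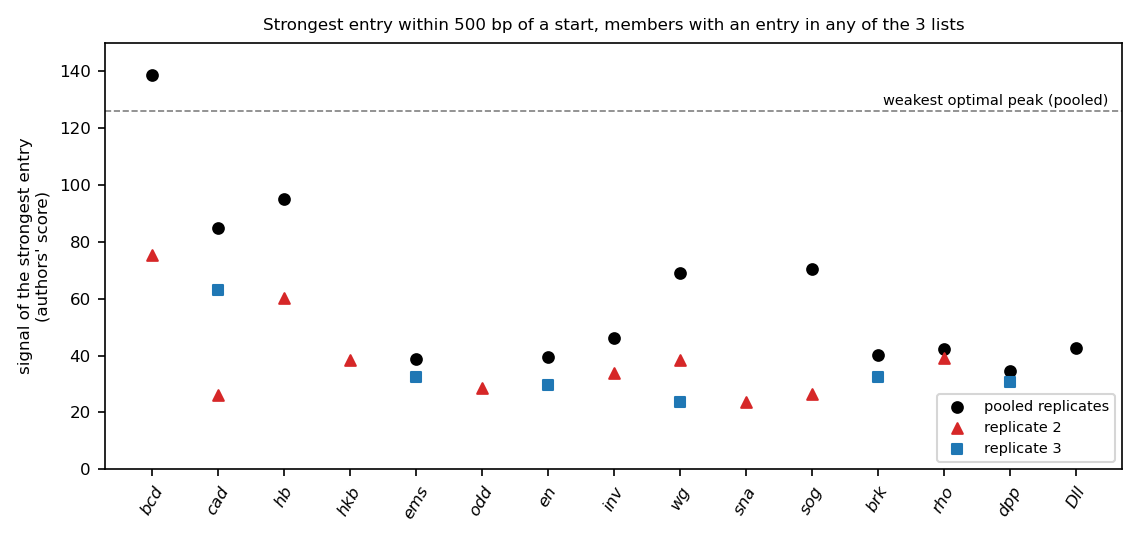
Signal (authors' score) of the strongest entry within 500 bp of a start, for the members with an entry in any of 3 lists: pooled (circles), replicate 2 (triangles) and replicate 3 (squares). Entries of different lists can lie at different sites of a gene, as at sog, rho and dpp. The dashed line is the weakest optimal peak, at 126, and of the pooled entries that of bcd, at 138.5, lies above it.

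In the loci, 15 of 34 genes (44.1%) had at least 1 optimal peak, against 68.1% of all protein-coding genes with their own 20 kb on each side. The genes were bcd, cad, hb, kni, gt, btd, ems, eve, prd, slp1, slp2, sog, brk, dpp and zen. The 34 loci merge into 31 stretches of 1.59 Mb and held 21 optimal peaks, which is 1.32 per 100 kb against 2.22 over the 6 arms. The density of weaker candidates was closer to that of the arms, at 17.3 (276 entries) against 20.2 per 100 kb, as was the density of protein-coding genes, at 9.67 against 10.4. That gene density includes the members (154 genes, 120 of them not members). Counted per gene, the locus of a member held a median of 3 other protein-coding genes, against 8 for all protein-coding genes. Whether this difference accounts for the lower share of loci with a peak was not tested. The low density of peaks held near the genes: with 10 kb on each side it was 1.03 per 100 kb, and with 50 kb on each side it was 2.37. With 50 kb, 31 of 34 genes had a peak, but the share of all protein-coding genes at that flank was not computed. Peaks among the strongest of both replicates numbered 9 of 21, against 58.5% of all optimal peaks.

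**Figure D2:**
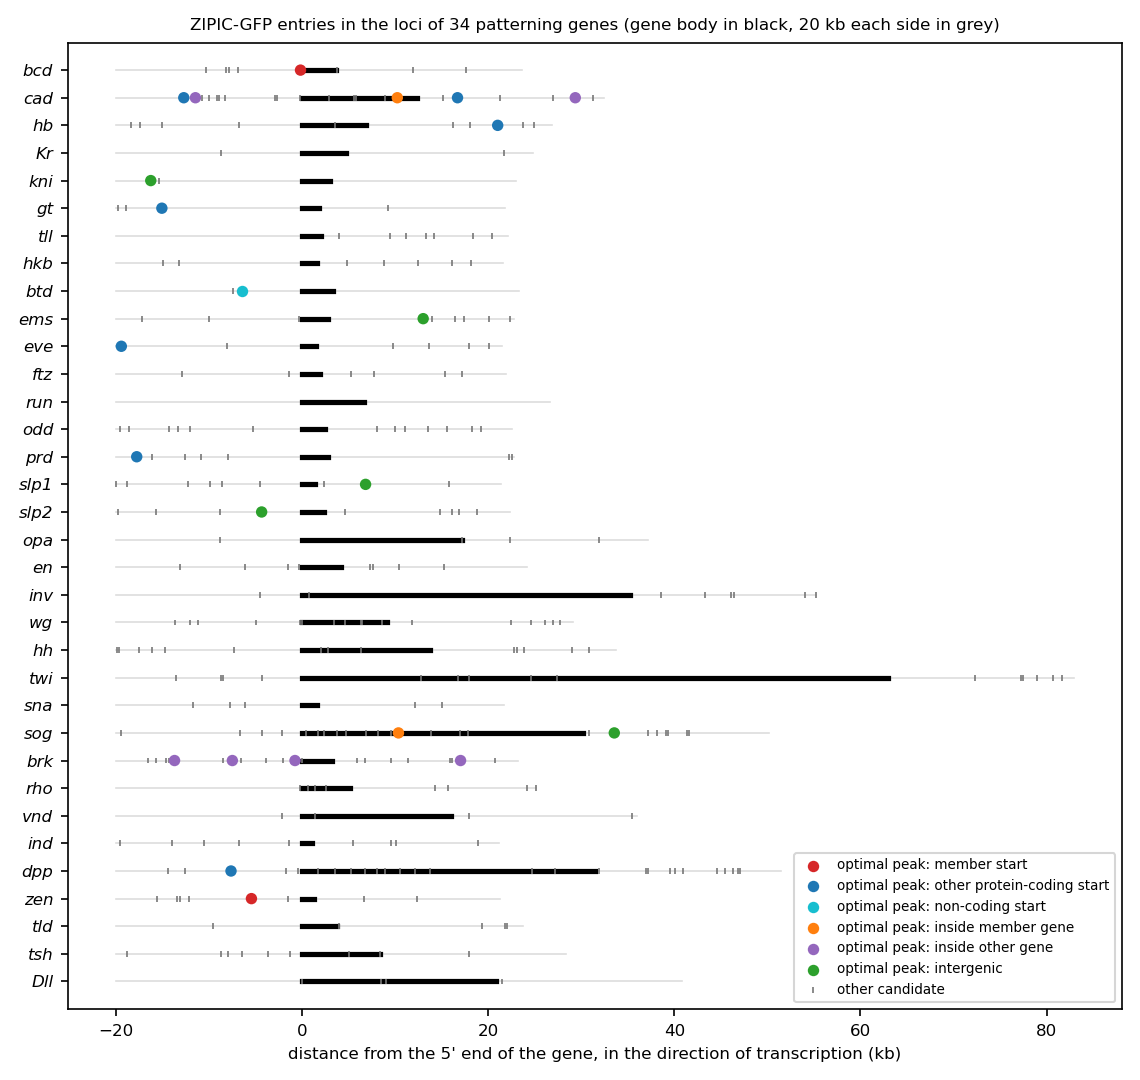
Summits in the loci of the 34 genes by distance from the gene's 5′ end in kb, negative upstream, with the gene body as a black bar and the 20 kb flanks in grey. Coloured circles are optimal peaks by where the summit lies, and ticks are weaker candidates. Only bcd has an optimal peak at its start (shown again in the locus of zen), and run has no entry of the pooled list, the only list drawn.

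The optimal peaks of the loci lay away from starts more often than peaks in general did. Of the 21, 1 was at the start of a member (bcd), 7 (33.3%) were at starts of other protein-coding genes, against 66.1% of all optimal peaks, and 1 was at a non-coding start. A further 2 lay inside members, in introns of cad and sog, 6 (28.6%, against 23.9% of all optimal peaks) lay inside other genes, and 4 (19%, against 7.61%) were intergenic. In all, 12 (57.1%) were away from any start, against 31.6% of all optimal peaks. Of these 12, 4 were in the brk locus alone. The weaker candidates went the other way, with 72.1% of the 276 in the loci away from any start, against 76.1% over the arms. No enhancer annotation was used, so DNA away from starts is not shown to be regulatory.

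This placement differed between the replicates. The strongest entries of replicate 2 gave 28 in the loci, 7 of them at a start (25%, against 54.9% of its strongest entries over the arms) and 7 inside members. Those of replicate 3 gave 21, 14 of them at a start (66.7%, against 75.2% over the arms) and 1 inside a member. The number of members with such an entry in the locus was 15 in replicate 2 and 9 in replicate 3. The same share over all protein-coding genes was not computed for single replicates, so these counts have none beside them. In the share of entries at a start, both replicates lay below their own share over the arms, by different amounts, and the cause was not tested.

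**Figure D3:**
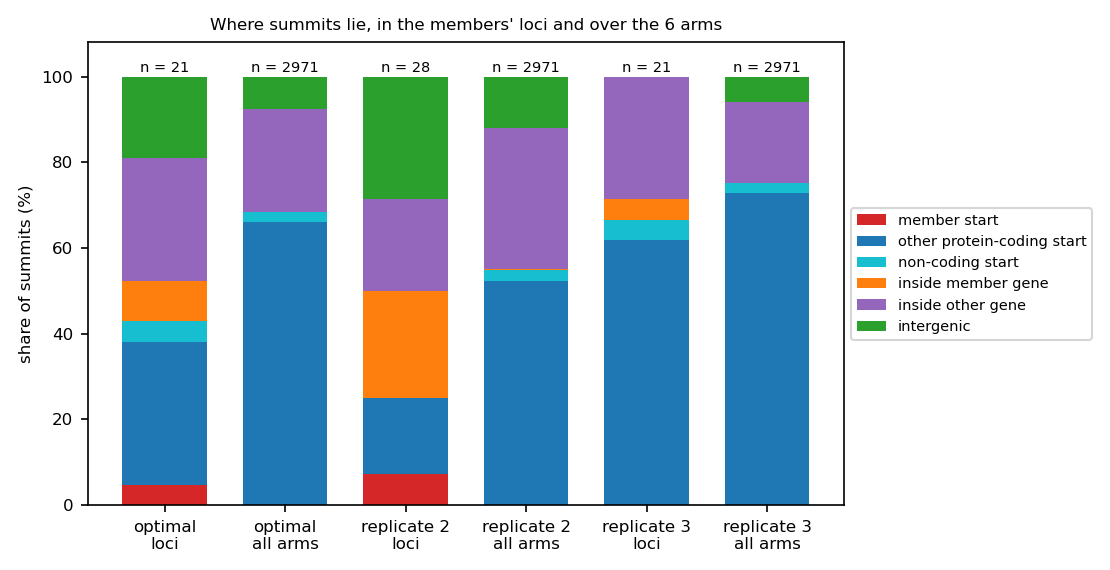
Share of summits (%) by where they lie, for optimal peaks and for the strongest 2971 entries of each replicate, in the loci of the 34 genes and over the 6 arms, with the number of summits above each bar. Starts of other protein-coding genes make up 33.3% of optimal peaks in the loci and 66.1% over the arms, and replicate 2 has more summits inside members (7 of 28) than replicate 3 (1 of 21).

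The strongest peak near any member was at brk, which lies within the gene model CG1677 (chrX:7281089-7405797). All 4 peaks of its locus were in introns of that model. That peak (chrX:7300204-7300724) was at -7475 bp from the start of brk and had a signal of 1380, rank 274 of 30000. It was 674 in replicate 2 (rank 289) and 717 in replicate 3 (rank 238), so both replicates listed it among their strongest. The other peaks of the locus were at -13684, -745 and 17043 bp and had signals of 158.5, 220.5 and 320.4. The peak at -745 bp lies just outside the 500 bp that defines a bound gene. Around the pair of slp genes, which encode forkhead proteins, a peak of 197.9 lay between slp1 and slp2 and belonged to both loci. It was 111 in replicate 2 (rank 1258) and 68.9 in replicate 3 (rank 3200).

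The sequences below are the plus strand of the 100 bases around summits (Release 6, dm6), with matches in capitals to any of 7 strings searched on both strands. The ZIPIC core is CAGGGCTG, and it contains the short form AGGGNTG. The other strings are CGATA with the longer TATCGATA that holds it, the Zelda string CAGGTAG, the GAGA factor string GAGAG and the M1BP string GGTCACACT. The brk and slp windows are shown because they hold repeated copies, bcd is the peak at a member's own start, and the windows of btd, prd, cad and dpp are those of the strongest summit outside any gene body in each of their role groups. The summits at btd, prd, cad and dpp lie within 500 bp of a start of another gene and are counted as start peaks throughout. The brk and slp windows were picked after their values were seen.
brk peak at -7475 bp, chrX:7300414-7300513: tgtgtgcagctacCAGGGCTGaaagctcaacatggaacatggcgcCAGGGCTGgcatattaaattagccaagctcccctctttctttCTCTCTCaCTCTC
slp1 and slp2, chr2L:3832463-3832562: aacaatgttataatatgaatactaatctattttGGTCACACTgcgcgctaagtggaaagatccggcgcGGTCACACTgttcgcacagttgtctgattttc
bcd start, chr3R:6759568-6759667: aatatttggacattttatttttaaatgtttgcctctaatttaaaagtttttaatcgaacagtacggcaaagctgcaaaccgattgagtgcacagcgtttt
btd, chrX:9687717-9687816: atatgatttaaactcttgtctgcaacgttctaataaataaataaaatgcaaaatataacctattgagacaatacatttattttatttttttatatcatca
prd, chr2L:12103524-12103623: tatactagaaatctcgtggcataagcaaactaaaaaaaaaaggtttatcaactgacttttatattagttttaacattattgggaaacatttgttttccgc
cad, chr2L:20757990-20758089: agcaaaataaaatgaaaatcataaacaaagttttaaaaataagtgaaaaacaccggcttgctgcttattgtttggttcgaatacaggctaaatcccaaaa
dpp, chr2L:2420704-2420803: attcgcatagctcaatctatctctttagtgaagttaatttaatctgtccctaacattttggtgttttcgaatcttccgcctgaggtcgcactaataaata

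The brk window holds 2 copies of the ZIPIC core in the same orientation, 32 bases apart from start to start, and a run of GAGAG on the minus strand. The slp window holds 2 copies of GGTCACACT, 35 bases apart. Over all 2971 optimal peaks, 5 windows (0.168%) hold 2 or more copies of the core and 2 (0.0673%) hold 2 or more of GGTCACACT. The windows at bcd, btd, prd, cad and dpp hold none of the strings. Windows of 100 bases around the 21 summits had a median GC content of 33%, against 36% over all optimal peaks.

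Counted over the 21 windows, the core was in 1 (4.76%, against 7.51% of all optimal windows) and AGGGNTG in the same 1 (against 17%). CGATA was in 2 (9.52%, against 22.9%), GAGAG in 3 (14.3%, against 9.02%), GGTCACACT in 1 (4.76%, against 1.41%), and TATCGATA (4.07% of all windows) and CAGGTAG (0.438%) in 0. The loci hold 26 copies of the core in all, 1.63 per 100 kb against 1.57 over the arms. Of these, 2 (7.69%) lie in an optimal peak, both at brk, against 13.9% of copies over the arms. Pooled entries of any strength cover 6 of the 26 (23.1%, against 23.4%), among them a copy in the 3′ UTR of wg with a signal of 83.4. The copies within 500 bp of a start numbered 3 (11.5%, against 23.9%).

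The same strings were counted in the members' promoters, over the 250 bases before and 50 after the 5′ end. GAGAG is in 28 of 34 (82.4%), against 29.7% of all protein-coding genes, and CAGGTAG in 5 (14.7%, against 1.64%), those of gt, ftz, odd, slp1 and sna. CGATA is in 7 (20.6%, against 47.4%), TATCGATA in 1 (2.94%, against 9.36%) and AGGGNTG in 7 (20.6%, against 10.9%). The ZIPIC core (2.32% of all genes) and GGTCACACT (6.05%) are in 0 of 34. A match is a description of the letters and not of a bound site.

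At cad, 5 optimal peaks made the most crowded locus of the 34. At its upstream end a peak of 227.5 stood at the shared starts of Rhau and dia, a formin gene, and a peak of 207 lay in an intron of dia. Replicate 3 listed them at 122.7 and 92.0, and replicate 2 listed neither. A peak of 167.5 lay in an intron of cad itself, with 79.3 in replicate 2 and 84.6 in replicate 3, and its summit window held CGATA. Downstream were a peak of 186.3 at Pomp, a proteasome maturation factor gene, and a peak of 200.0 in an intron of CG9328, both listed in both replicates.

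Among the gap and head gap genes, 5 of 8 loci held a peak, each a single one. Over all protein-coding genes 68.1% had a peak in the locus, which is close to 5 of 8. btd, an Sp-family zinc-finger gene, had a peak of 337.1 at -6419 bp, 422 bp from the start of lncRNA:CR42657. It had 156.0 in replicate 3 and no entry in replicate 2. The start of the flanking protein-coding gene nej lay on the same side, 7120 bp from that of btd, and so more than 500 bp from the summit. The gt locus, of a bZIP repressor, held a peak of 163.1 at the start of tko, a mitochondrial ribosomal protein gene, with 122.0 in replicate 3 and none in replicate 2. The hb locus held a peak of 148.5 at the starts of CG11755, CG8043 and Unc50, with 91.2 in replicate 3 and none in replicate 2. The gt and hb peaks stood at neighbours' starts, and the intergenic peaks of ems and kni did not. That of ems, at 13026 bp, had a signal of 139.3, with 92.6 in replicate 2 and 47.7 in replicate 3. That of kni, a nuclear receptor-like gap gene, stood at -16238 bp and had 126.3, with 64.5 and 62.8, and ranked 2966 of 2971, just inside the optimal threshold. Kr, tll and hkb had no optimal peak in the locus.

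Among the pair-rule genes eve and prd had a peak at a neighbour's promoter in the upstream flank. The eve peak stood at -19401 bp, 160 bp from Pal1 and 186 bp from Pdrg1, and had a signal of 826.4, with 468.9 in replicate 2 and 373.2 in replicate 3. This was the highest value at a neighbour's start in the loci. The prd peak stood at -17747 bp, near the starts of ThrRS, a threonyl-tRNA synthetase gene, and Patsas, and had 286.5, with 130.0 and 148.0. The shared slp peak makes the third of this group, and ftz, run, odd and opa had none. So 4 of 8 pair-rule genes had a peak in the locus, against 68.1% of all protein-coding genes. run, a Runt-domain gene, had no pooled entry of any strength in its locus, and the other 33 genes had at least 1. The whole replicate lists were not searched over the loci.

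No segment polarity gene (en, inv, wg, hh) and no selector (tsh, Dll) had an optimal peak in its locus. Of the 10 dorsoventral genes sog, brk, dpp and zen did. The share over all protein-coding genes was 68.1%, and each of these groups is small. sog had a peak of 152.5 in an intron, with 108.5 in replicate 2 and 47.7 in replicate 3, and an intergenic peak of 140.5, with 104.5 and 37.8. Replicate 2 ranked them 1291 and 1352 in its own list, and replicate 3 ranked them 6066 and 9140. dpp had a peak of 151.2 at the start of CG9886, 76 bp away, with 82.2 and 79.8, and zen, a homeodomain gene of the amnioserosa, shared the peak of bcd. twi, sna, rho, vnd, ind and tld had none.

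**Figure D4:**
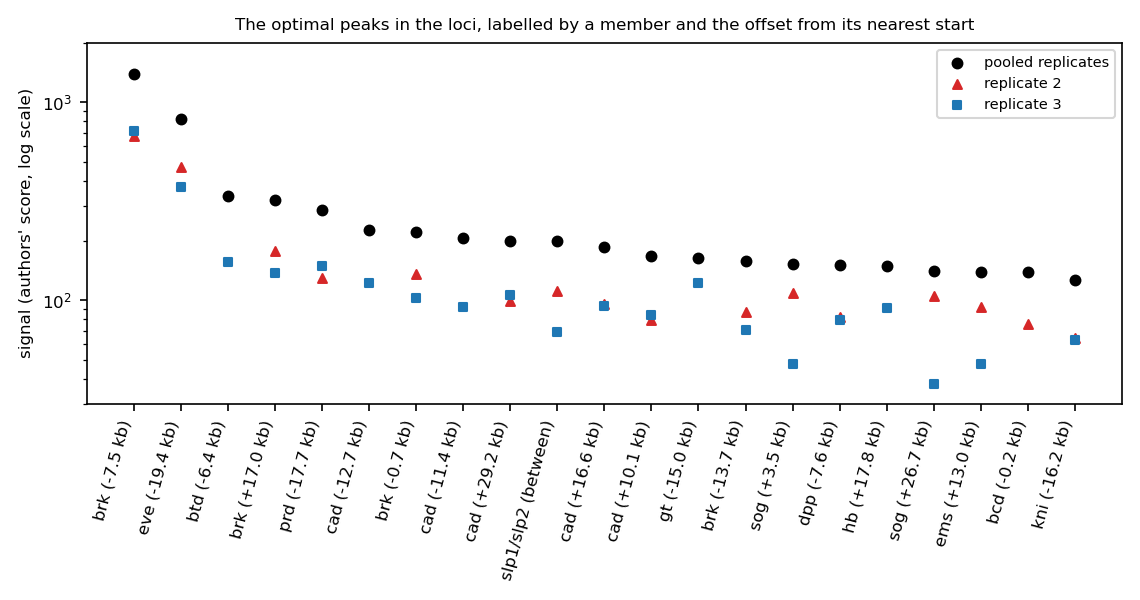
Signal (authors' score, log scale) of the 21 optimal peaks in the loci, in order of pooled signal, in the pooled list (circles), replicate 2 (triangles) and replicate 3 (squares), each labelled by a member and the distance in kb from its nearest start. The peaks at brk (1380) and eve (826.4) stand above the others, and 5 peaks have no entry in replicate 2 and 1 has none in replicate 3.

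The threshold of the optimal list cut through the loci. The weakest optimal peak had a signal of 125.98 and the next entry 125.96. Just below, eve had an entry of 123.9 at the start of CG12134, sog one of 121.6 in an intron and ems one of 117.5 between genes. hh had 5 entries above 100, led by one of 117.0 at the start of CG13829, and all 5 stood at starts of other genes. Of the 276 weaker entries in the loci 12 (4.35%) reached 100, against 4.4% over the arms, and the median signal was 45.0 against 45.9.

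Seen from the genes, the nearest optimal summit was farther away at the median than for genes in general, though not in the upper tail. Its median distance from the nearest start was 21695.5 bp, against 10033 bp for all protein-coding genes, and it was over 10 kb for 26 of 34 (76.5%, against 50.1%). The range ran from 152 bp at bcd to 94678 bp at wg. By role the median was 5118 bp for the maternal genes, 17023.5 bp for the gap genes, 20799 bp for the pair-rule genes, 24613 bp for the dorsoventral genes and 48551.5 bp for the segment polarity genes, with few genes in each. The interval free of optimal summits around a gene had a median length of 119422 bp, against 70758 bp for all protein-coding genes (33 members, since Kr had no summit on its distal side). The widest was that of odd, at 252077 bp.

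**Figure D5:**
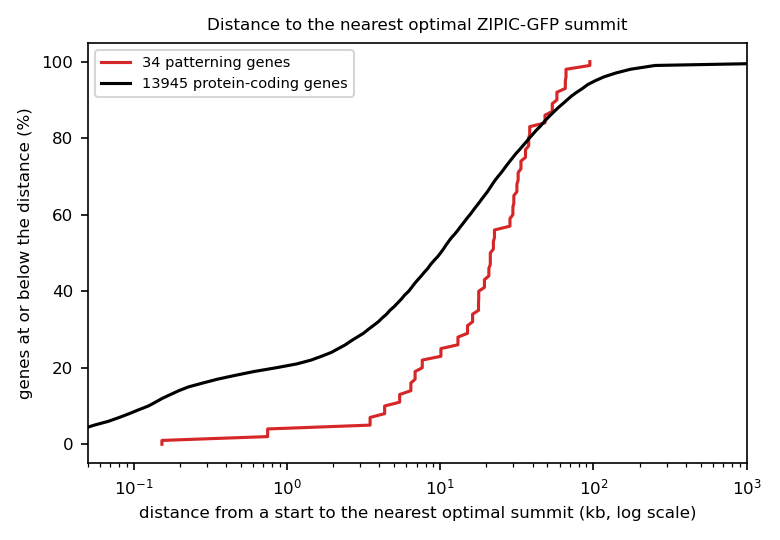
Share of genes (%) whose nearest optimal summit lies at or below the distance on the x axis (kb, log scale), for the 34 genes (red) and all 13945 protein-coding genes (black). The red curve lies to the right at the median (21695.5 against 10033 bp), and the curves are closer at the upper quartile (35977 against 29801 bp). In the upper tail the members are nearer, with 57695 against 67266 bp at the 90th percentile.

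The summits that border these intervals were mostly at promoters of other genes, as optimal peaks are in general. Of 61 distinct borders, 39 (63.9%, against 66.1% of all optimal peaks) were at starts of other protein-coding genes, and 43 (70.5%, against 68.4%) were at a start of any kind. For opa, a Zic-family pair-rule gene, the downstream border was a peak of 1763 at Cdep, and for tll it was a peak of 1581 at Chchd3. These 2, and genes named only because they hold a summit (CG1677, CG9328, CG12134, CG13829), were picked after their values were seen. The closest neighbours that do not overlap a member were bound no more often than genes in general. Of the 62 protein-coding genes flanking a member, 7 (11.3%) were bound, against 18.4% of all genes, and 30 (48.4%) had a pooled candidate at a start, against 50.8%. A further 8 protein-coding genes overlap a member and were left out of the flanking genes, and 1 of these 8 was bound.

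The bound neighbours were TTLL4B (708, downstream of slp2), CG31612 (472, beside tsh), dia (227) and Pomp (186) on either side of cad, CG13365 (165, beside vnd), tko (163, beside gt) and E(Pc), an Enhancer of Polycomb gene (154, beside inv). Counted with each replicate's strongest entries, 3 of the 62 flanking genes were bound in replicate 2, against 13.7% of all protein-coding genes. In replicate 3 it was 11 of 62, against 20.1% of all genes. Over all 120 other protein-coding genes in the loci, 13 (10.8%, against 18.4% of all genes) were bound and 64 (53.3%, against 50.8%) had a candidate.

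Other genes of the same pathways were bound about as often as genes in general. Of 83 matched genes, 14 (16.9%, against 18.4%) had an optimal peak at a start. In the BMP pathway 4 of 14 were bound, the type II receptor gene put (966), gbb (414, nearer to ytr), the signal transducer Mad (160) and the Dpp-responsive factor shn (138). Replicate 2 and replicate 3 listed put at 497 and 468. In the maternal and Toll pathway list 3 of 16 were bound, cact, the inhibitor of Dorsal (340, with 173 and 152), pip (176) and pll (173, nearer to TfIIA-L). In the Wingless pathway 1 of 15 was bound, the kinase gene sgg (382, with no entry in replicate 2), and in the Hedgehog pathway 2 of 11, ttv (169) and smo (133, nearer to CG17078). Of 27 other patterning factors 4 were bound, bowl (328), ush (167), cnc (158) and tin (154). Of the 14 bound genes, 7 had a peak among the strongest 2971 entries of both replicates. Like sgg, pll and smo had no entry in replicate 2, which listed Mad and shn only at ranks 4265 and 17607. Replicate 3 listed ush and cnc at ranks 3755 and 5003. None of 8 Hox genes was bound, and their nearest optimal summit stood at a median of 23794 bp.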

How the data were processed

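The authors deposited narrowPeak lists on dm6 and dm3. Only the dm6 lists were used here: optimal peaks from a reproducibility (IDR) procedure, pooled candidates and candidates of each replicate, per the deposited file descriptions. A single control alignment served both replicates, per those descriptions. Caller and aligner: not given in the sources used here. Entries were ranked and described within a list by the deposited score (signal). The lists hold no read counts, so depth is unknown and no interval was computed.

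Summits were placed on Ensembl release 115 gene models (BDGP 6.54) and on the RefSeq Release 6 genome with Python 3.11.15, and figures used matplotlib 3.10.9. The optimal list was checked to be the strongest 2971 pooled entries. Each summit was assigned to a member start, another protein-coding start, a non-coding start, a gene body or intergenic DNA, in that order, and counted once. The steps were tested on entries placed at known positions. The members and the pathway lists (83 of 85 symbols matched, and 8 of 8 Hox genes) were chosen with earlier results of these data known, and no test was made. Weaker entries of 100 or more, classes in the replicates, core copies and promoter strings were added after seeing the data. Named genes were the members, genes at the nearest summit within 20 kb, bound flanking genes and the strongest 4 bound per pathway list. Alternatives changed the distance to a start, the flank, the peak threshold, the replicates, the overlap, the starts used and the window for strings.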

Additional observations from a re-analysis of the deposited data

How the results depend on the processing

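The number of members bound at a start was 1 in the main setting and 2 with 1000 bp in place of 500 bp (brk added). Peaks of the loci at other coding starts numbered 7 in the main setting and 9 with 1000 bp. Members with a candidate at a start numbered 7 within 250 bp. With 10 kb flanks, 9 members had a peak in the locus, with 10 peaks, 2 of them at other coding starts. With 50 kb flanks there were 31 members, 82 peaks, 50 at other coding starts and 2.37 per 100 kb. The share of all protein-coding genes was computed only at 500 bp and, for the optimal list alone, at 20 kb, so these counts have none beside them. With peaks above the median signal only, the values were 0 bound members, 5 members with a peak in the locus, 7 peaks, 3 at other coding starts, 3 bound flanking genes, a median distance of 41261 bp, 0.439 peaks per 100 kb and 5 bound pathway genes. With peaks found in both replicates they were 0, 5, 9, 4, 3, 43929.5 bp, 0.565 and 7. These settings leave fewer peaks. With a single replicate the values ran from 0 to 2 bound members, 9 to 15 with a peak in the locus, 21 to 28 peaks, 5 to 13 at other coding starts, 3 to 11 bound flanking genes, 25458.5 to 28414 bp, 1.32 to 1.76 per 100 kb, 10 to 16 bound pathway genes and 6 to 10 members with a candidate at a start. The cause of these differences was not tested. In windows of 200 bp, CGATA was in 4 and GAGAG in 6 of the 21. No paired analysis was possible because there was 1 group. Read depth is unknown, so an entry missing from a replicate is not shown to be unbound DNA.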
